A study of Mus musculus with 12 samples.

Results

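The genes described here are 10 genes of muscle atrophy and its control: the F-box ubiquitin ligases Fbxo32 (atrogin-1), Fbxo30 and Fbxo40, the muscle RING-finger proteins Trim63, Trim54 and Trim55, the transcription factors Foxo1, Foxo3 and Foxo4, and the secreted ligand Mstn (myostatin). They were taken by name from a table of 39210 genes, in which all 10 were found, and 9 of them passed the filter on low counts that left 13960 genes to test. The tissue was frozen ventricle of C57BL/6 mice, and the labels name no mutation and no agent other than oxygen. Male hypoxia and female hypoxia mice were taken down by 1% oxygen a day over 14 days to 7% oxygen and kept there for 2 weeks, while male normoxia and female normoxia mice breathed room air at 20.9% oxygen for 4 weeks. Each of these 4 groups had 3 RNA sequencing libraries, 12 in all. Nothing in the labels says that a group's libraries are separate animals, so p-values here measure the spread between libraries, which may be technical.

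In muscle, ubiquitin ligases mark contractile and regulatory proteins for the proteasome, and Fbxo32 and Trim63 are the genes best known for being switched on when muscle wastes. FoxO factors drive both of them when they are in the nucleus, and insulin signalling through Akt keeps FoxO factors in the cytoplasm. Myostatin is a ligand of the TGF-beta family that holds back muscle growth through activin receptors. In the heart the same ligases turn over sarcomere proteins and calcineurin, and their loss in mice alters cardiac growth.

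The promoter of Trim63 is shown because it holds the letters of both a glucocorticoid receptor palindrome and a FoxO core, and that of its family member Trim54 is shown beside it for comparison. Both are the 250 bases before the start of the gene, from RefSeq on GRCm38.p6, plus strand; Trim63 is at chr4:134314870-134315119 and Trim54 at chr5:31116362-31116611. Capitals mark the motifs that were found.
Trim63: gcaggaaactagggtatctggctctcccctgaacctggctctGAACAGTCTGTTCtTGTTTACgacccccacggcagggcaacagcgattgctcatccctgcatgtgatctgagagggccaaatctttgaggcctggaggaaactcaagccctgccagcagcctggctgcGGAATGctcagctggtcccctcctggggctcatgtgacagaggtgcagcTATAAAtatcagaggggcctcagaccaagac
Trim54: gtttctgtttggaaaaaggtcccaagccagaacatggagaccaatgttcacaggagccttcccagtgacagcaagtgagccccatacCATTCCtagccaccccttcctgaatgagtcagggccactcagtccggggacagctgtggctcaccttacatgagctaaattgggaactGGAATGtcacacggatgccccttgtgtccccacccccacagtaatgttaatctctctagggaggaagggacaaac

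Motifs were searched on both strands, apart from the TATA box, in windows that also held the 50 bases after the start. In Trim63 the glucocorticoid receptor palindrome (GAACA and TGTTC with 3 bases between) lay 208 to 196 bases before the start and the FoxO core GTAAACA 194 to 188 bases before it, read on the minus strand as TGTTTAC, with 1 base between them. The palindrome was in 0.0578% and the FoxO core in 3.65% of all 32851 RefSeq promoter windows. Of the 7 listed genes with a window (Mstn, Foxo1, Foxo3, Trim63, Trim54, Fbxo30 and Fbxo40), Trim63 alone held either motif. The TATA box TATAAA, in 8.32% of all windows, was found in Trim63 and Mstn. The muscle CAT motif CATTCC, in 14.7% of all windows, was found in Trim63, Trim54 and Foxo3, with GGAATG as its reverse strand. For hypoxia-inducible factors only the core form ACGTG was searched. That form, in 19.6% of all windows, was found in 0 of the 7. Other forms of the core, such as GCGTG, were not searched, so a core of those forms may be present.

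Library totals ranged from 14915830 to 19397851 estimated counts. The 8 markers of ventricular cardiomyocytes summed to 41615 to 52971 CPM in male hypoxia, 54334 to 60950 in male normoxia, 42936 to 62121 in female hypoxia and 54127 to 62842 in female normoxia libraries. CPM are counts scaled to library size, corrected by TMM. Skeletal muscle markers, which bear on genes of muscle wasting, were near 0, with 5 of 11 past the filter, Myh2 at 0 in every library and sums of 5.98 to 23.0 CPM. Male hypoxia libraries 2 and 3 stood apart in the mean log2(CPM + 0.5) of 7 atrial cardiomyocyte markers, at 4.92 and 4.64 against 1.17 to 2.43 in the other libraries. The summed level of these markers did not set library 3 apart, with 502 to 1721 CPM in male hypoxia, 76.6 to 137 in male normoxia, 193 to 1069 in female hypoxia and 119 to 259 in female normoxia. Erythroid markers moved with hypoxia in both sexes: 5 of 5 rose in the averaged contrast, and they summed to 6859 to 8637 CPM in male hypoxia, 1123 to 1490 in male normoxia, 4600 to 7710 in female hypoxia and 1094 to 1445 in female normoxia. Male hypoxia libraries 2 and 3 also stood apart in the mean log2(CPM + 0.5) of 7 adipocyte markers. They were at 1.60 and 1.40 against 0.42 to 0.66 in the other libraries. The summed adipocyte markers were not high in male hypoxia, at 145 to 258 CPM against 176 to 285 in female hypoxia. In normoxia they were 193 to 278 CPM in males and 254 to 386 in females. Female normoxia library 3 stood apart in the 7 immediate early genes, with 732 CPM against 84.9 to 226 CPM in the other libraries.

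Fbxo32 was the single listed gene with an adjusted p under 0.05 (edgeR) for hypoxia in the fit to all 12 libraries, and it fell. The genes that did not pass are not shown to be unchanged. Fbxo32 encodes atrogin-1, the substrate-binding subunit of an SCF ubiquitin ligase. In males it stood at 87.7, 118 and 90.4 CPM in hypoxia and at 164, 160 and 116 CPM in normoxia. In females it stood at 52.7, 61.4 and 40.5 CPM in hypoxia and at 132, 132 and 62.7 CPM in normoxia. In both sexes the third normoxia library was the lowest of its group. All female hypoxia values lay below all female normoxia values, with 61.4 and 62.7 CPM the nearest, as did those of 12.7% of all tested genes. In males the groups met at the top of hypoxia (118 CPM) and the bottom of normoxia (116 CPM).

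Averaged over the sexes, Fbxo32 fell to 0.564 of its normoxia level (log2 fold change -0.83 ± 0.19 SE, adjusted p = 0.00904). Tests are edgeR's quasi-likelihood tests where no other tool is given, adjusted over all 13960 genes by Benjamini-Hochberg, with the threshold at an adjusted value of 0.05. In females alone Fbxo32 averaged 51.5 ± 10.5 CPM in hypoxia and 109 ± 40.1 CPM in normoxia (SD, n = 3 each) and fell, with a log2 fold change of -1.08 ± 0.27 (SE, adjusted p = 0.0417, edgeR). In males alone it averaged 98.7 ± 16.8 CPM in hypoxia and 147 ± 26.8 CPM in normoxia (SD, n = 3 each), with a log2 fold change of -0.57 ± 0.27 (SE) that did not pass (adjusted p = 0.164, edgeR). The 2 effects were not shown to differ: the female minus the male effect was -0.51 ± 0.38 (log2, SE, adjusted p = 0.819, edgeR). In bulk tissue, fewer cells of a type and less RNA per cell cannot be told apart.

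The averaged fall of Fbxo32 passed with each library left out in turn, at log2 fold changes of -0.96 to -0.74 (adjusted p 0.000869 to 0.0266, edgeR), but not without male hypoxia libraries 2 and 3 together (-0.91, adjusted p = 0.0555). With mitochondrial and haemoglobin genes taken out of the table, Fbxo32 stood at -0.82 averaged (adjusted p = 0.00923, edgeR). The female result was less firm: it lost its call without any one of 10 of the 12 libraries, male ones included (adjusted p 0.0513 to 0.180, edgeR), and held without female hypoxia library 1 (0.0479) or female normoxia library 3 (0.00685). Without female normoxia library 3 the male result passed as well (adjusted p = 0.0450, edgeR).

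**Figure D1:**
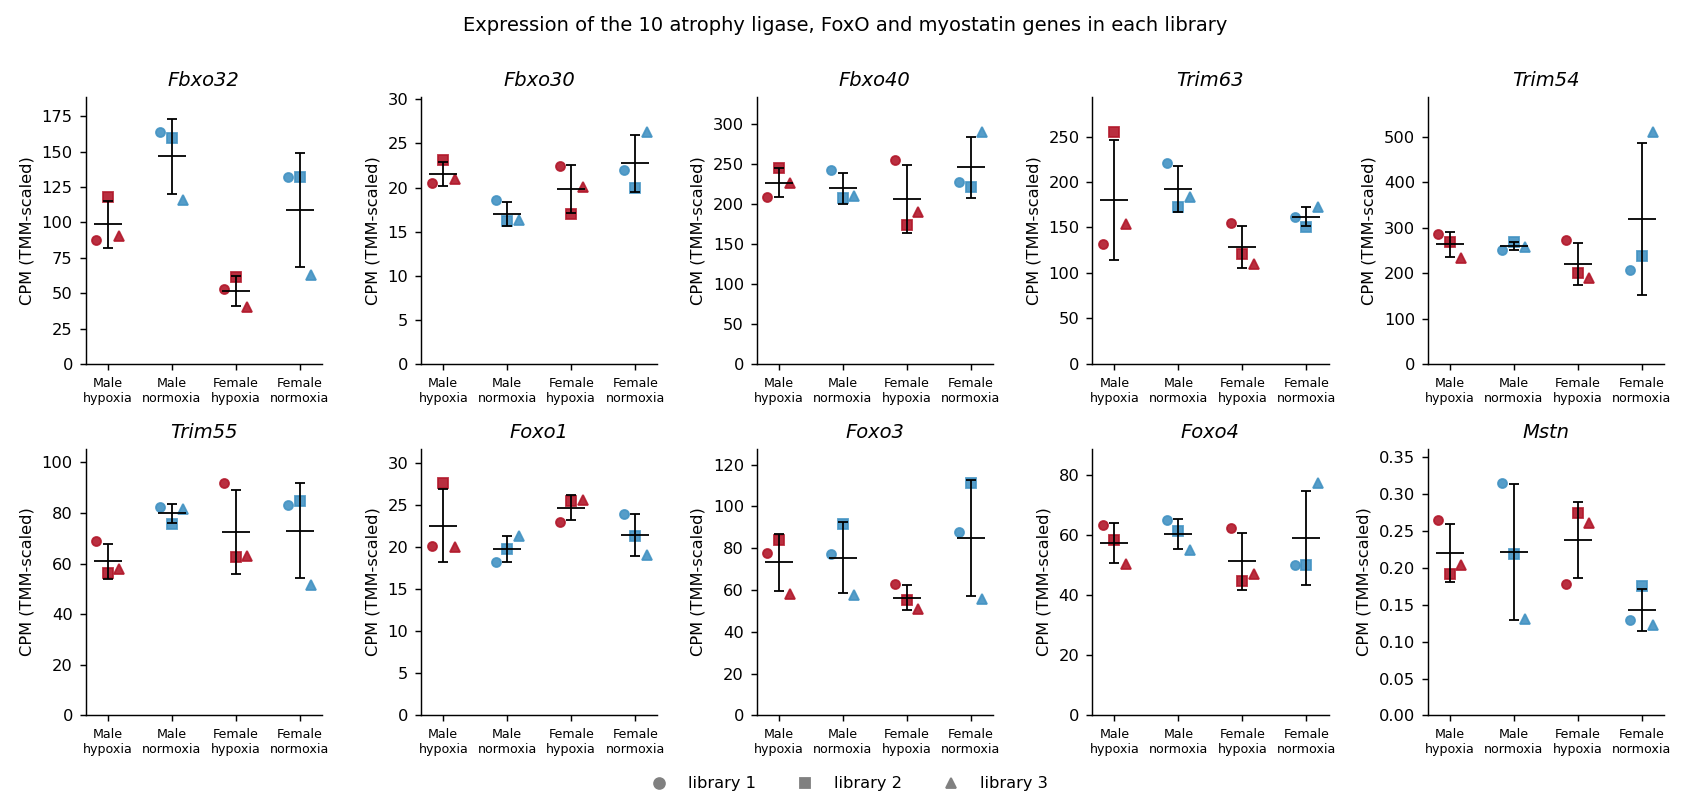
Expression of each of the 10 genes in CPM (TMM-scaled, linear axis from 0) in the 3 libraries of each group, with the group mean (long bar) and SD (whiskers). Fbxo32 lies lowest in female hypoxia, at 40.5 to 61.4 CPM, and Trim54 has 1 high library, at 511 CPM in female normoxia.

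The count of 1 listed gene called of 9 tested, or 11.1%, in the averaged contrast stands beside 27.9% of all genes tested, of which 12.9% were lower. In females 1 of 9 listed genes was called, beside 5.99% of all genes. In males 0 of 9 were called by edgeR, DESeq2 or limma voom, beside 15.6% of all genes, with 1 (Fbxo30) at an unadjusted p under 0.05. The listed genes had a median log2 fold change of -0.20 in the averaged contrast, where all tested genes had -0.0061, of -0.25 in females against -0.022, and of -0.046 in males against 0.006. In females 8 of the 9 had a negative fold change, and in males 5 of the 9. The share of all tested genes with a negative fold change is not given here. The female signs depended in part on single libraries. Without female normoxia library 3, Foxo4 in females was at 0.035, while Fbxo32 was at -1.36 and Foxo3 at -0.82. Trim54 in females ranged from -0.76 to -0.014 with 1 library left out.

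Fbxo30, an F-box protein known in mouse muscle as a ligase induced by denervation, had opposite signs in the 2 sexes. It stood at 20.5, 23.1 and 21.0 CPM in male hypoxia and at 18.6, 16.2 and 16.3 CPM in male normoxia. It stood at 22.4, 17.0 and 20.1 CPM in female hypoxia and at 22.0, 19.9 and 26.3 CPM in female normoxia. The highest value of all, 26.3 CPM, was that of female normoxia library 3. The male groups did not overlap and the female groups did. Among all tested genes, 21.5% were higher and 19.8% lower in male hypoxia than in male normoxia with no overlap. The log2 fold change was 0.34 ± 0.13 (SE, adjusted p = 0.10, edgeR) in males. In females it was -0.20 ± 0.13 (SE, adjusted p = 0.376, edgeR), and neither passed the threshold. With 1 library left out, the values were 0.28 to 0.41 in males and -0.29 to -0.079 in females. The difference between the sexes, -0.54 ± 0.19 (log2, SE), had an unadjusted p of 0.0143 and an adjusted p of 0.665 by edgeR, beside 6.79% of all genes at an unadjusted p under 0.05. For that contrast 0 of the 9 listed genes were called by edgeR, DESeq2 or limma voom, and edgeR called 0.00716% of all genes. The effective transcript length that the authors deposited for Fbxo30 ranged from 3164 to 4190 bases over the libraries, whereas that of Fbxo32 was 6726 bases in all 12.

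Fbxo40, a muscle F-box protein that in mice targets the insulin receptor substrate IRS1, was among the steadier genes. It stood at 209, 245 and 226 CPM in male hypoxia and at 242, 207 and 210 CPM in male normoxia. Female hypoxia libraries had 255, 174 and 190 CPM and female normoxia libraries 227, 221 and 290 CPM. Hypoxia and normoxia overlapped in both sexes, and the averaged log2 fold change was -0.10 ± 0.11 (SE, adjusted p = 0.507, edgeR).

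Trim63 encodes MuRF1, the RING-finger ligase of the sarcomere that is usually read together with Fbxo32 as a marker of wasting. It stood at 132, 255 and 154 CPM in male hypoxia and at 221, 172 and 184 CPM in male normoxia. In female hypoxia it stood at 155, 121 and 110 CPM, and in female normoxia at 162, 151 and 172 CPM. The highest value of all was that of male hypoxia library 2, the library with the highest sum of atrial markers (1721 CPM); the part of those markers in the result was not tested. Hypoxia and normoxia overlapped in both sexes. Averaged over the sexes the log2 fold change was -0.21 ± 0.16 (SE, adjusted p = 0.336, edgeR), and without male hypoxia library 2 it was -0.38 and passed (adjusted p = 0.0327, edgeR), while without libraries 2 and 3 together it was -0.44 and did not (adjusted p = 0.0658, edgeR).

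Trim54 encodes MuRF3, which binds microtubules and the Z-disc, and was the most abundant of the 10 genes per transcript length. It stood at 287, 269 and 234 CPM in male hypoxia and at 252, 269 and 257 CPM in male normoxia. Female hypoxia libraries had 274, 200 and 189 CPM and female normoxia libraries 208, 238 and 511 CPM. The value of 511 CPM came from the library with 732 CPM of immediate early genes, and whether the 2 are linked was not tested. The averaged log2 fold change was -0.25 ± 0.20 (SE, adjusted p = 0.367, edgeR), and without that library it was 0.005 (adjusted p = 0.977, edgeR).

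Trim55 encodes MuRF2, a partner of titin. It stood at 68.9, 56.3 and 57.7 CPM in male hypoxia and at 82.3, 75.6 and 81.5 CPM in male normoxia. In female hypoxia it stood at 91.6, 62.5 and 63.1 CPM, and in female normoxia at 83.0, 84.5 and 51.4 CPM. The male hypoxia values all lay below the male normoxia values, as did those of 19.8% of all tested genes, and the female groups overlapped. The male log2 fold change of -0.39 ± 0.19 (SE) did not pass (adjusted p = 0.193, edgeR), although it did in a fit to the 6 male libraries alone (adjusted p = 0.0330). The female one was -0.012 ± 0.19 (SE, adjusted p = 0.981, edgeR).

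**Figure D2:**
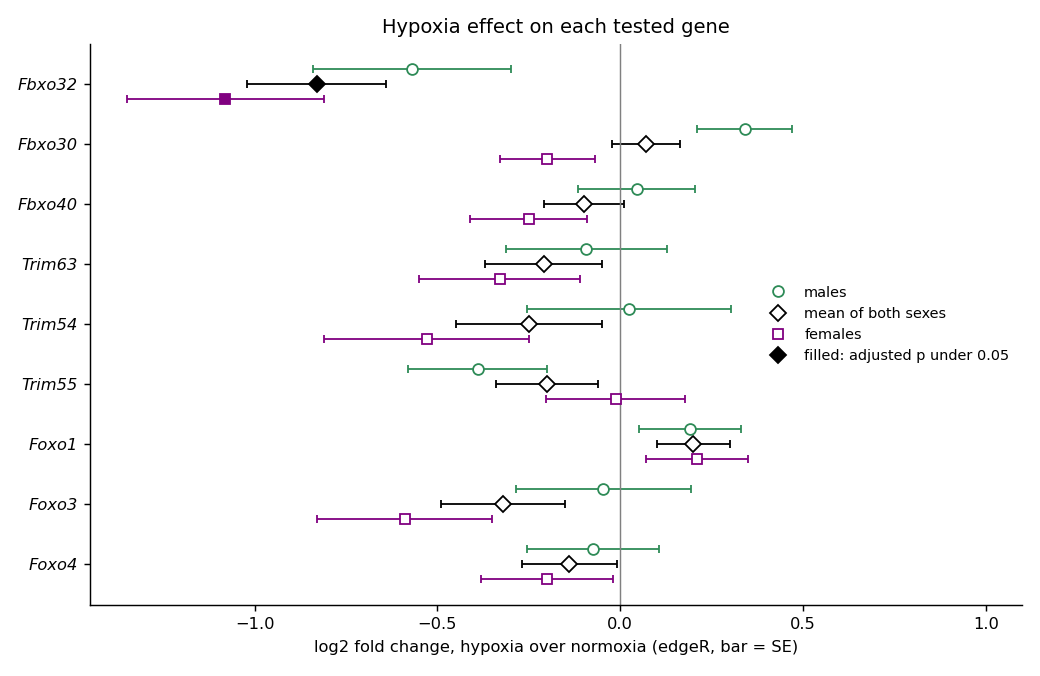
Log2 fold change of hypoxia over normoxia for the 9 tested genes in males, in females and averaged over the sexes, from edgeR, with bars of 1 SE and filled symbols for an adjusted p under 0.05. Fbxo32 alone has filled symbols, at -0.83 averaged and -1.08 in females, and Fbxo30 lies at 0.34 in males and -0.20 in females.

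The 3 FoxO genes did not pass in any hypoxia contrast fitted to all 12 libraries. Foxo1, the FoxO factor that in mouse muscle drives both wasting ligases, stood at 20.2, 27.6 and 20.0 CPM in male hypoxia and at 18.2, 19.8 and 21.3 CPM in male normoxia. In female hypoxia it stood at 23.0, 25.5 and 25.6 CPM, and in female normoxia at 24.0, 21.3 and 19.1 CPM. Its log2 fold change was close in the 2 sexes, 0.19 ± 0.14 in males and 0.21 ± 0.14 in females (SE), and 0.20 ± 0.10 averaged (SE, adjusted p = 0.143, edgeR). Groups overlapped in both sexes, and Foxo1 and Fbxo30 were the listed genes with a positive averaged value.

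Foxo3, which is known to switch on Fbxo32 in mouse muscle, stood at 77.7, 84.0 and 57.9 CPM in male hypoxia and at 77.4, 91.5 and 57.8 CPM in male normoxia. The female values were 62.9, 55.4 and 50.8 CPM in hypoxia and 87.8, 111 and 55.7 CPM in normoxia. The male groups covered nearly the same range, and in females the third normoxia library fell within the hypoxia values. The log2 fold change was -0.59 ± 0.24 (SE, adjusted p = 0.157, edgeR) in females, -0.046 ± 0.24 (SE, adjusted p = 0.920, edgeR) in males and -0.32 ± 0.17 averaged (SE, adjusted p = 0.182, edgeR). Without female normoxia library 3, Foxo3 passed at -0.82 in females (adjusted p = 0.0418, edgeR) and at -0.43 averaged (adjusted p = 0.0348, edgeR). The female minus the male effect of Foxo3 was -0.54 ± 0.34 (log2, SE, adjusted p = 0.787, edgeR).

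Foxo4, a FoxO factor regulated by Akt in the same way, stood at 63.6, 58.4 and 50.5 CPM in male hypoxia and at 65.0, 61.6 and 55.0 CPM in male normoxia. In female hypoxia it stood at 62.3, 44.9 and 47.1 CPM, and in female normoxia at 50.3, 50.1 and 77.3 CPM. The groups overlapped, the highest value again came from female normoxia library 3, and the averaged log2 fold change was -0.14 ± 0.13 (SE, adjusted p = 0.445, edgeR). Foxo6, the remaining FoxO gene of the mouse, is not on the list and was looked at after its values were seen. It averaged 1.55 ± 0.0623 CPM in male hypoxia and 3.34 ± 0.503 CPM in male normoxia, and 1.27 ± 0.364 CPM in female hypoxia and 2.02 ± 1.69 CPM in female normoxia (SD, n = 3 each). Its averaged log2 fold change of -0.89 ± 0.38 (SE) did not pass (adjusted p = 0.105, edgeR), and without female normoxia library 3 it was -1.13 and passed (adjusted p = 0.00540, edgeR).

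Mstn was at the edge of detection and was not tested. It had 4, 4 and 4 estimated counts in male hypoxia and 5, 4 and 2 in male normoxia, and 3, 5 and 5 in female hypoxia and 2, 3 and 2 in female normoxia. These counts lie between 0.123 and 0.314 CPM. In females the lowest hypoxia count and the highest normoxia count were both 3, while in CPM the values of female hypoxia (0.178 to 0.274) lay above those of female normoxia (0.123 to 0.175), as did those of 13.2% of all tested genes. The male groups overlapped. With at most 5 reads per library, no difference was tested for Mstn.

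Levels were compared between genes on the deposited TPM scale, which divides by transcript length. Averaged over the 12 libraries, the level was 139 TPM for Trim54, 63.7 for Trim63, 29.3 for Fbxo40, 19.2 for Trim55, 12.3 for Foxo4, 9.22 for Fbxo32, 7.04 for Foxo3, 3.62 for Fbxo30, 1.67 for Foxo1 and 0.0557 for Mstn. The first 4 in this order are ligases of striated muscle. Each gene was above the next in all 12 libraries, except that Trim55 was above Foxo4 in 11, Foxo4 above Fbxo32 in 8 and Fbxo32 above Foxo3 in 10, so Foxo4, Fbxo32 and Foxo3 did not hold a fixed order. In female hypoxia Fbxo32 stood at 4.88, 6.14 and 4.36 TPM and Foxo3 at 6.18, 5.83 and 5.69 TPM. A gene's TPM was not compared directly between groups, because the median log2 TPM of all tested genes was itself higher in hypoxia, by 0.46 in males and by 0.265 in females.

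**Figure D3:**
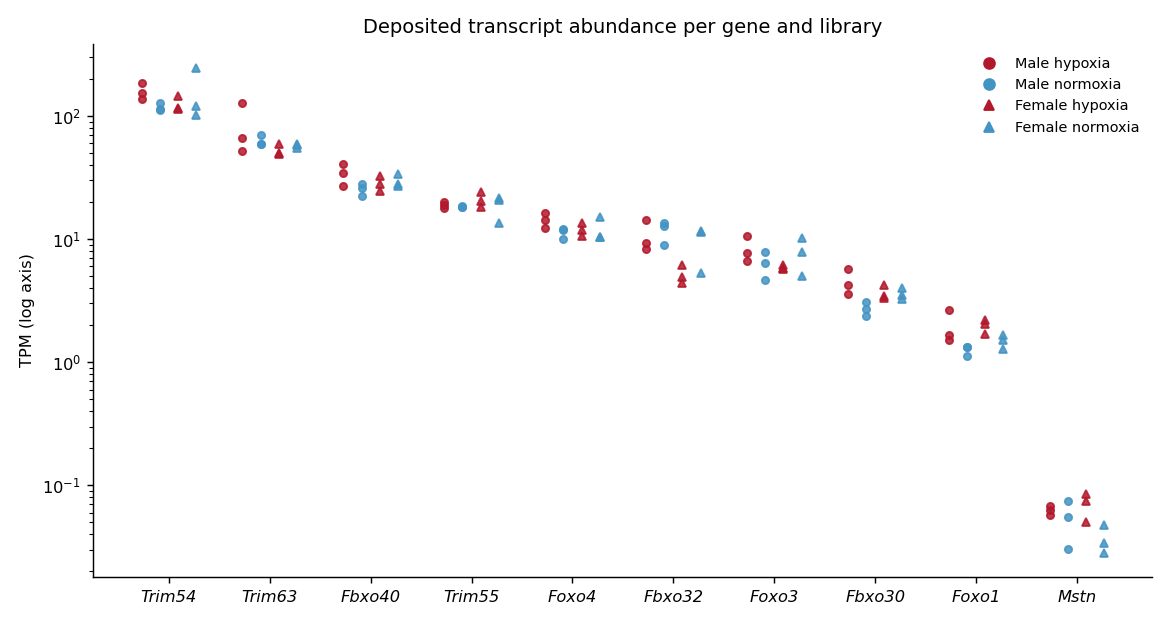
Deposited TPM of the 10 genes in each of the 12 libraries, on a log axis, with genes ordered by their mean. Trim54 is highest at a mean of 139 TPM, Mstn lowest at 0.0557 TPM, and the points of Foxo4, Fbxo32 and Foxo3 share a range.

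Ratios within a library compare ligases without a scaling factor. The 3 such measures given here were chosen after the values were seen. The ratio of Fbxo32 to Trim63 in TPM was 0.160, 0.112 and 0.142 in male hypoxia and 0.180, 0.225 and 0.152 in male normoxia. It was 0.0821, 0.122 and 0.0890 in female hypoxia and 0.198, 0.211 and 0.0884 in female normoxia. Averaged over the sexes the log2 ratio differed by -0.55 (hypoxia minus normoxia), with an exact two-sided permutation p of 0.0550 within sex, where 400 arrangements allow no p below 0.00500.

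The ratio of Trim54 to Trim55 in TPM was 8.12, 9.12 and 7.66 in male hypoxia and 6.06, 6.89 and 6.25 in male normoxia, without overlap. It was 5.93, 6.25 and 5.69 in female hypoxia and 4.96, 5.52 and 17.8 in female normoxia, where the last value is that of library 3. In males the exact two-sided permutation p was 0.10, the smallest that 3 libraries against 3 allow, and averaged over the sexes it was 1.00. The third measure set Fbxo32 against the mean log2 CPM of the 8 ventricular cardiomyocyte markers, 2 of which (Pln and Myl2) fell in the averaged contrast while the list had a median of -0.24. On that scale the difference for Fbxo32 was -0.53 (log2, hypoxia minus normoxia), with an exact two-sided permutation p of 0.0750. The value of -0.83 without the markers is edgeR's fold change, which is another measure. The part of the markers in the gap between the 2 was not tested.

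**Figure D4:**
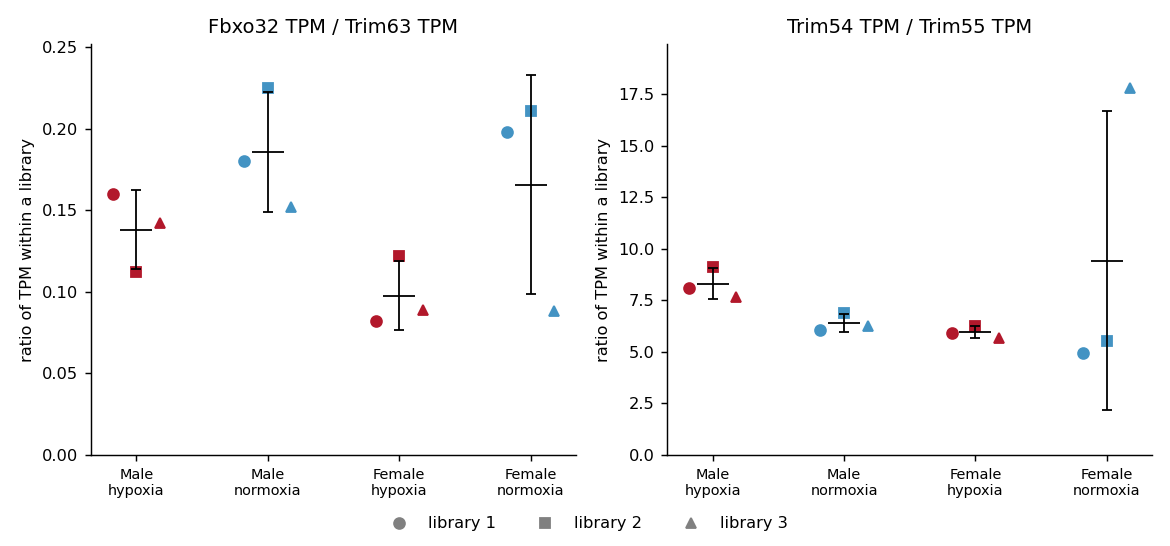
Ratio of Fbxo32 to Trim63 (left) and of Trim54 to Trim55 (right) in deposited TPM within each library, on linear axes from 0, with group means (long bars) and SD (whiskers). The Fbxo32 to Trim63 ratio is 0.0821 to 0.122 in female hypoxia, and the Trim54 to Trim55 ratio is 17.8 in female normoxia library 3.

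Between the sexes, Fbxo32 stood at 51.5 ± 10.5 CPM in female hypoxia and 98.7 ± 16.8 CPM in male hypoxia (SD, n = 3 each), without overlap, as 8.14% of all tested genes were lower in that comparison. The log2 difference, female over male, was -0.94 ± 0.27 (SE), with an unadjusted p of 0.00502 and an adjusted p of 0.283 by edgeR, and DESeq2 gave an adjusted p of 0.0450. In normoxia it was -0.43 ± 0.27 (SE, adjusted p = 0.746, edgeR), and the groups overlapped. By edgeR 0 of 9 listed genes passed between the sexes in hypoxia, beside 0.150% of all genes, with 2 (Fbxo32 and Trim63) at an unadjusted p under 0.05, 1 called by DESeq2 and 0 by limma voom. In normoxia 0 of 9 passed by edgeR, DESeq2 or limma voom, beside 0.0716% of all genes for edgeR, with 1 (Fbxo30) at an unadjusted p under 0.05. Fbxo30 was higher without overlap in female normoxia (22.7 ± 3.28 CPM) than in male normoxia (17.0 ± 1.37 CPM; SD, n = 3 each), as were 7.16% of all tested genes, with a log2 difference of 0.42 ± 0.13 (SE, adjusted p = 0.642, edgeR). Trim63 was lower without overlap in female normoxia (162 ± 10.2 CPM) than in male normoxia (192 ± 25.3 CPM; SD, n = 3 each), as were 6.71% of all tested genes, with a log2 difference of -0.25 ± 0.22 (SE, adjusted p = 0.807, edgeR).

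How the listed genes ran together was described by the correlation of log2 CPM over the 12 libraries, which share the group differences and the libraries that stand apart. Trim54 and Foxo4 were the closest pair, with r = 0.89, and 0.88 over the 11 libraries without female normoxia library 3. Fbxo32 and Foxo3 had r = 0.76 (0.74 without that library), and Fbxo32 and Trim63 had r = 0.66 (0.71 without it). The correlations of Trim54 with Fbxo30 (r = 0.51) and with Trim55 (r = -0.34) were 0.05 and 0.24 without it, so their values rest on 1 library. Among all genes whose log2 CPM averaged 1 or more, those most like Fbxo32 were Slc38a7 (r = 0.94), Ginm1 (0.93) and Rcbtb2 (0.92), and the like of Trim63 were Cdkl2 (0.91), Dpm3 (0.89) and Cpe (0.88). For Trim54 they were Cat, Map1lc3b (both 0.96) and Wdr45 (0.95), which were at 0.85, 0.83 and 0.84 without female normoxia library 3. For Trim55 they were Fsd2 (0.96), Ints10 and C130080G10Rik (both 0.95). Foxo1 was most like Hps3 (0.87) and Gm7694 (0.85), Foxo3 was most like Rpp14, Lama5 and 2810021J22Rik (each 0.86), and Foxo4 was most like Rai2, Rwdd1 (both 0.94) and Rab22a (0.92). Fbxo30 was most like Proser2 (0.91), Dnttip2 (0.88) and Nop14 (0.86), and Fbxo40 was most like Dmd, Nmt1 (both 0.93) and Kansl2 (0.92).

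The pathway around these genes was read from 7 further lists in the averaged contrast, with counts to be set beside the 27.9% of all genes that passed. Of 16 other ubiquitin ligases of muscle, 0 passed by edgeR, with 4 at an unadjusted p under 0.05, 2 called by DESeq2 and 0 by limma voom, and the median log2 fold change was -0.013. With 1 library left out, this count was 3 without female hypoxia library 1, 2 without female normoxia library 1, and 1 without male hypoxia library 1, male hypoxia library 3 or female normoxia library 3.

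Of 15 genes for ubiquitin, its E2 enzymes and the SCF core that carries the F-box proteins, 2 rose and 3 fell, with a median of -0.053. Cand1, which exchanges F-box proteins on SCF ligases, rose by 0.33 ± 0.064 (log2, SE, adjusted p = 0.00367, edgeR). Skp1, the adaptor that holds them, stood at 129 ± 6.83 CPM in male hypoxia and 140 ± 8.50 CPM in male normoxia, and at 114 ± 6.95 CPM in female hypoxia and 150 ± 12.6 CPM in female normoxia (SD, n = 3 each). Averaged over the sexes Skp1 fell, with a log2 change of -0.26 ± 0.066 (SE, adjusted p = 0.0142, edgeR). The E2 enzyme Ube2b fell, with a log2 change of -0.52 ± 0.10 (SE, adjusted p = 0.00480, edgeR). Cand1 lost its call when counts were corrected for effective length (0.19, adjusted p = 0.609, edgeR) and on centred TPM (0.18, adjusted p = 0.621, limma). The list count was 3 without any one of male hypoxia library 3, male normoxia library 1 or 3, female hypoxia library 2 or 3, or female normoxia library 1 or 2.

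Of 23 genes known as FoxO targets, leaving out the listed ligases, 22 were tested, of which 1 rose and 2 fell, with a median of -0.24. Ddit4, an inhibitor of mTORC1 that low oxygen also induces, stood at 89.7 ± 31.6 CPM in male hypoxia and 60.8 ± 14.3 CPM in male normoxia, and at 91.5 ± 22.5 CPM in female hypoxia and 43.2 ± 6.34 CPM in female normoxia (SD, n = 3 each). Averaged over the sexes Ddit4 rose by 0.82 ± 0.18 (log2, SE, adjusted p = 0.00787, edgeR). The mitochondrial superoxide dismutase Sod2 fell, with a log2 change of -0.53 ± 0.13 (SE, adjusted p = 0.0111, edgeR). Txnip, which binds thioredoxin, fell, with a log2 change of -0.75 ± 0.25 (SE, adjusted p = 0.0456, edgeR), a call that was lost without any one of 9 libraries (adjusted p 0.0545 to 0.109, edgeR) and held without male normoxia library 3, female hypoxia library 1 or female normoxia library 1. Txnip also lost its call with the correction for effective length (adjusted p = 0.0945, edgeR) and on centred TPM (adjusted p = 0.0797, limma). By sign alone, 20 of the 22 were negative in females and 11 of the 22 in males. The list median was -0.41 in females and 0.0063 in males, where all tested genes had -0.022 and 0.006. The female minus male effect had a median of -0.46, where all tested genes had -0.0072. For that effect 0 of the 22 passed by edgeR, with 3 at an unadjusted p under 0.05. In normoxia the list median, female over male, was 0.19. The signs are not given here without female normoxia library 3. The count of 3 called was 5 without male hypoxia library 2 and 7 without female normoxia library 3. In that library Pdk4 stood at 1240 CPM and Cdkn1a at 145 CPM, against highest values of 268 and 89.5 CPM in the other 11, in genes chosen after their values were seen.

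Of 19 genes of insulin, PI3K and Akt signalling to FoxO factors, 2 rose and 1 fell, with a median of 0.12. Ywhaz, a 14-3-3 protein of the kind that binds phosphorylated FoxO factors, rose by 0.41 ± 0.087 (log2, SE, adjusted p = 0.00606, edgeR). Akt2 stood at 140 ± 23.1 CPM in male hypoxia and 181 ± 2.89 CPM in male normoxia, and at 155 ± 30.6 CPM in female hypoxia and 200 ± 22.8 CPM in female normoxia (SD, n = 3 each). Akt2 fell, with a log2 change of -0.37 ± 0.11 (SE, adjusted p = 0.0265, edgeR), a call lost without any one of male hypoxia library 2 or 3, male normoxia library 1, or female hypoxia library 2 or 3 (adjusted p 0.0531 to 0.0694, edgeR). The list count was 7 without female normoxia library 3.

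Of 19 genes of myostatin and activin signalling other than Mstn, 17 were tested, of which 5 rose and 0 fell, with a median of 0.27. Inhba, the subunit of activin A, rose to 5.65 ± 3.41 CPM in male hypoxia, against 1.24 ± 0.210 CPM in male normoxia, and stood at 2.77 ± 0.714 CPM in female hypoxia and 1.76 ± 0.825 CPM in female normoxia (SD, n = 3 each). Its averaged log2 fold change was 1.42 ± 0.33 (SE, adjusted p = 0.00926, edgeR), and on centred TPM it was 0.72 and did not pass (adjusted p = 0.0984, limma). Fstl3, a secreted inhibitor of activin and myostatin, rose by 1.19 ± 0.29 (log2, SE, adjusted p = 0.0121, edgeR), and the type I receptor Tgfbr1 rose by 0.49 ± 0.11 (log2, SE, adjusted p = 0.00990, edgeR). In males 6 of the 17 rose and 1 fell, beside 15.6% of all genes called, and in females 0 passed by edgeR, beside 5.99%, with 2 at an unadjusted p under 0.05; for the difference between the sexes 0 of the 17 passed by edgeR, with 6 at an unadjusted p under 0.05. The averaged count was 3 without male normoxia library 3 and 10 without female normoxia library 3. Fibroblast markers moved with this list: 3 of 5 rose in the averaged contrast, and the 5 summed to 737 to 984 CPM in male hypoxia, 573 to 602 in male normoxia, 518 to 772 in female hypoxia and 567 to 634 in female normoxia. Their part in the result was not tested.

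Of 14 known substrates and partners of the listed ligases, 1 rose and 2 fell, with a median of -0.17. The intermediate filament protein Vim rose to 456 ± 59.6 CPM in male hypoxia, against 192 ± 24.5 CPM in male normoxia, and to 446 ± 142 CPM in female hypoxia, against 202 ± 34.2 CPM in female normoxia (SD, n = 3 each), a log2 fold change of 1.20 ± 0.16 (SE, adjusted p = 0.000683, edgeR). Vim is made in mesenchymal and endothelial cells, and 4 of 5 endothelial and 3 of 5 macrophage markers rose as well. The endothelial markers summed to 973 to 1231 CPM in male hypoxia, 654 to 782 in male normoxia, 990 to 1299 in female hypoxia and 758 to 862 in female normoxia, and their part in the result was not tested. The muscle creatine kinase Ckm fell, with a log2 change of -0.30 ± 0.076 (SE, adjusted p = 0.0126, edgeR), and Tcap, the titin cap protein, fell, with a log2 change of -0.83 ± 0.22 (SE, adjusted p = 0.0164, edgeR). The list count was 6 without female hypoxia library 1 and 5 without female normoxia library 3.

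Of 8 glucocorticoid targets, listed because that hormone drives Trim63, 1 rose and 0 fell, with a median of 0.19. Fkbp5, a co-chaperone of the glucocorticoid receptor, had an averaged log2 fold change of 0.75 ± 0.25 (SE, adjusted p = 0.0423, edgeR). It stood at 59.8 ± 17.1 CPM in male hypoxia and 21.6 ± 8.84 CPM in male normoxia, and at 49.7 ± 8.16 CPM in female hypoxia and 48.9 ± 20.4 CPM in female normoxia (SD, n = 3 each). Fkbp5 lost its call without any one of 8 libraries (adjusted p 0.0661 to 0.0977, edgeR) and kept it without male hypoxia library 3, male normoxia library 2, female hypoxia library 1 or female normoxia library 3. The correction for effective length (adjusted p = 0.0529, edgeR) and centred TPM (adjusted p = 0.0629, limma) ended it as well. The list count was 0 without any one of male hypoxia library 1 or 2, male normoxia library 1 or 3, female hypoxia library 2 or 3, or female normoxia library 1, and was 2 without female hypoxia library 1 and 3 without female normoxia library 3.

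Of the genes named in these lists, only Ddit4 and Vim kept their call without male hypoxia libraries 2 and 3 together, the libraries that stood apart in atrial markers (adjusted p = 0.0375 and 0.0133, edgeR). The others had adjusted p-values of 0.0540 to 0.244 there, in a fit in which male hypoxia rests on 1 library that is assumed to vary like the other groups, and Inhba was at 0.80 (log2).

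**Figure D5:**
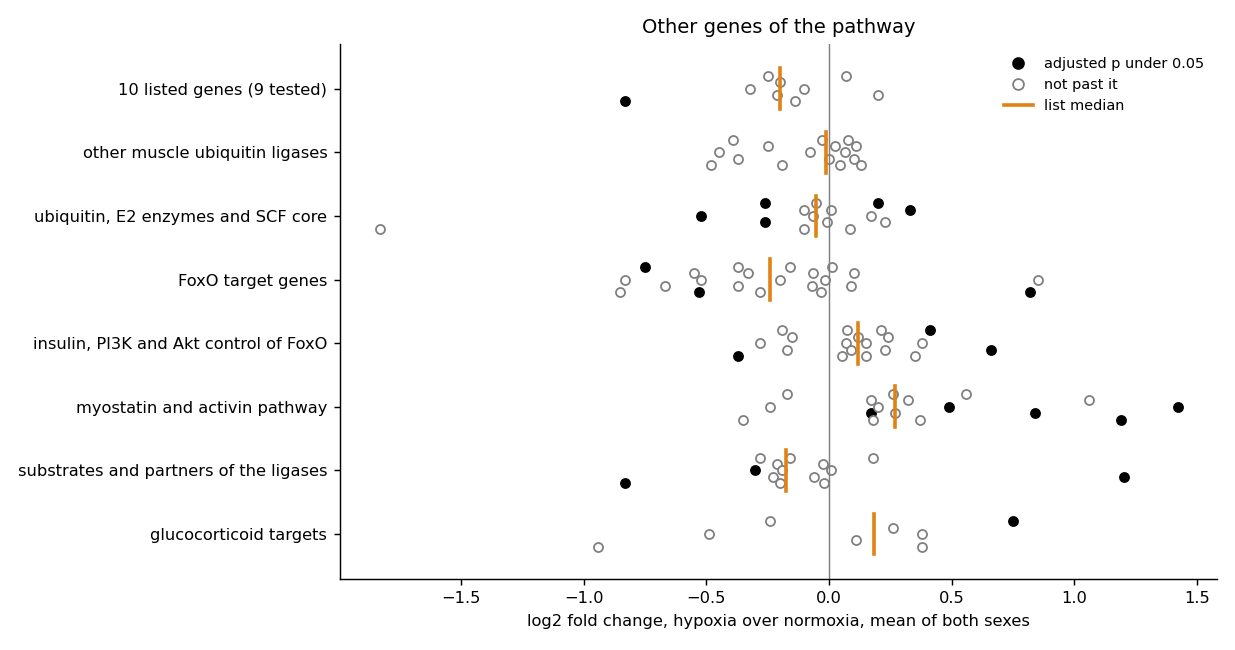
Averaged log2 fold change of hypoxia over normoxia for each tested gene of the 10 listed genes and the 7 further lists, with filled points for an adjusted p under 0.05 (edgeR) and a bar at the list median. The medians run from -0.24 for FoxO targets to 0.27 for myostatin and activin genes.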

How the data were processed

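RNA from frozen ventricle was sequenced in 12 libraries with a directional mRNA kit, per the labels' protocols. FastQC, Salmon and the build GRCm39 are named per the submitters' processing notes, while versions, annotation release and strand setting are not given in the sources used here. The authors deposited an estimated count, a TPM abundance (scaled for length) and an effective transcript length in bases per gene and library, per the file headers. The estimated counts the authors deposited were rounded to whole numbers before testing, and 22.3% of them were not whole. TPM served to compare genes, and 0 columns of values belonged to no sample.

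Symbols came from an annotation of another build, matched 99.3% of the identifiers (269 had none) and were used as names alone; promoters are RefSeq's on GRCm38.p6. Genes were filtered with filterByExpr and scaled by TMM (factors 0.900 to 1.18), and edgeR 4.0.16 in R 4.3.3 fitted 1 mean per group to all 12 libraries, with 8 residual degrees of freedom. Its quasi-likelihood tests are two-sided and adjusted by Benjamini-Hochberg over 13960 genes. Hypoxia was set against normoxia within males, within females and as the mean of both; further contrasts were the difference between these effects and the sexes within each oxygen level. SE came from the fold change and its F statistic. The fit was tested on simulated data.

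The listed genes, the 7 pathway lists and the 9 marker lists were chosen with earlier results of these data known. Named genes were all 10 listed, up to 3 of each pathway list with the smallest p among those called in the averaged contrast, and the 3 genes most correlated with each listed gene; others are marked as chosen after their values were seen, and some genes this rule selects are left unreported. Alternatives were DESeq2 1.42.0, limma 3.58.1 voom, RLE or upper quartile factors, an effective length offset, another low-count filter or none, tables without mitochondrial or haemoglobin genes, a replicate block, fits to only the compared libraries, each library or the libraries that stood apart left out, and, chosen after seeing the data, centred TPM in limma. Libraries of a group differed by more than sampling noise, so none was treated as a library deposited a second time.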

Additional observations from a re-analysis of the deposited data

How the results depend on the processing

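The averaged fall of Fbxo32 kept its direction in 24 alternatives and passed in 23; the female fall passed in 10 of 25. Left out one at a time, the libraries gave 0 to 1 listed genes called in males, 0 to 2 in females and 1 to 2 averaged, and 891 to 3037, 57 to 2122 and 2699 to 4653 of all genes, against 2174, 836 and 3896 with all libraries. The lowest of these counts came without male hypoxia library 3 in males and female hypoxia library 3 in females, and the highest female count without female hypoxia library 1. All genes numbered 1 to 5 for the difference between the sexes' effects, 9 to 40 between sexes in hypoxia and 5 to 10 in normoxia. List counts were 0 to 3 for other ligases, 3 to 7 for ubiquitin and SCF, 2 to 7 for FoxO targets, 2 to 7 for insulin, 3 to 10 for myostatin, 3 to 6 for substrates and 0 to 3 for glucocorticoid targets. Signs turned with 1 library out for Trim63 in males (-0.43 to 0.088), Trim54 in males (-0.042 to 0.10) and averaged (-0.37 to 0.005), Trim55 in females (-0.21 to 0.11), Foxo3 in males (-0.20 to 0.12), Foxo4 in males (-0.15 to 0.011) and females (-0.35 to 0.035), and Fbxo40 in males (-0.015 to 0.12).

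Without male hypoxia libraries 2 and 3 together, where male hypoxia rests on 1 library, 0 listed genes were called averaged and 0 in females, and 66, 497 and 1338 of all genes in males, in females and averaged, with 7 for the difference; lists had 1 (ubiquitin), 1 (FoxO targets), and 0 for insulin, myostatin and glucocorticoid. Foxo3 was at 0.04, Foxo4 at 0.071 and Fbxo40 at -0.075 in males. Without female normoxia library 3 as well, 2 listed genes were called in females, 227 of all genes in males, 2402 averaged, 6 for the difference and 12 between sexes in hypoxia, with 6 FoxO targets and 5 substrates; Foxo3 (0.04), Foxo4 (0.07) and Fbxo40 (-0.075) in males, Foxo4 in females (0.035) and averaged (0.053) and Trim54 averaged (0.066) turned sign.

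DESeq2 called 1 listed gene between sexes in hypoxia, 1693 of all genes in females, 68 for the difference, 184 between sexes in hypoxia and 58 in normoxia, 2 other ligases, 5 FoxO targets and 5 substrates. limma voom called 0 listed genes in females and 2 of all for the difference, with Trim55 in females at 0.0014. No filter gave 6 for the difference, and upper quartile factors put Trim54 in males at -8.2e-05. The length offset called 0 listed genes in females, 1263 of all in males, 362 in females and 13 between sexes in hypoxia, 2 ubiquitin and 0 glucocorticoid genes, with Fbxo40 in males at -0.0065. Fits to only the compared libraries called 1 listed gene in males and 0 in females, 27 of all genes in females, 11 between sexes in hypoxia and 6 in normoxia. Centred TPM called 0 listed genes in females, 1298 of all in males, 252 in females, 3 for the difference, 3 ubiquitin, 5 substrate and 0 glucocorticoid genes, with Trim54 (-0.032) and Fbxo40 (-0.059) in males and Fbxo30 averaged (-0.0011) turned. The cause was not tested for any of these. The replicate numbers were not taken to pair libraries. Deviations of same-numbered libraries correlated at -0.045 to 0.029 between hypoxia and normoxia, and at 0.031 to 0.186 between the sexes. Only the value of 0.186, between male and female hypoxia library 1, was over 0.1. The replicate block gave 2 other ligases and 6 genes between sexes in normoxia, and Fbxo32 at -0.80 averaged; it changed no call of a listed gene. Depth limits Mstn, at 2 to 5 reads.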
